A study of Mus musculus with 6 samples.

Results

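The 5 genes Il6, Osm, Lif, Il6st and Il6ra of the interleukin-6 (IL-6) and oncostatin M family were followed in colonic macrophages (MΦs) of mice without the IL10 receptor subunit IL10Rβ. Il6, Osm and Lif encode cytokines, Il6st the shared signalling receptor gp130, and Il6ra the receptor chain that binds IL-6. The rule that chose them names gene symbols and uses no measured value, although it was set with earlier results of these data known. All 5 were among the 14097 genes of the expression table, and all 5 were among the 11067 genes that reached 50 normalized counts in at least 1 library.

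P3/P4 MΦs, the mature MΦs of the colonic lamina propria, were sorted as CD45+CD11b+CD11cintCD103-CD64+Ly6C-MHCII+ cells from untreated 129SvEv mice. RNA was sequenced in 6 libraries, 1 for each genotype, Il10rb-/- (knockout) or Il10rb+/- (heterozygous control), at each of 1, 3 and 12 weeks of age. Several mice were pooled for each 1-week library, whereas 1 mouse gave each of the 3- and 12-week libraries. The deletion was present in every cell of the Il10rb-/- mice and was not restricted to MΦs, and the controls themselves lacked 1 copy of Il10rb. There were no replicate libraries, so the difference between 2 libraries of one age has no replicate check and can be a difference between 2 mice or 2 pools.

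Values are normalized counts, the reads on a gene divided by the size factor of its library, and are not corrected for gene length. Depth on the listed genes ran from 6700337 reads (3-week Il10rb+/-) to 40754971 (12-week Il10rb+/-). Il10rb had 1231, 386 and 2341 reads in the Il10rb+/- libraries of 1, 3 and 12 weeks and 8, 28 and 43 reads in the Il10rb-/- libraries, so the genotypes matched their labels. The 4 Y-linked genes in the table had 1123 reads in the 1-week Il10rb+/- pool and between 5 and 46 reads in each of the other libraries, so the 1-week pools differed in their Y-linked transcripts. In such bulk samples, fewer cells of a type and less RNA per cell cannot be told apart.

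IL-6, oncostatin M and leukemia inhibitory factor (LIF) are secreted cytokines that all signal through gp130. IL-6 first binds the IL-6 receptor chain, whereas oncostatin M and LIF bring gp130 together with the oncostatin M receptor (Osmr) or the LIF receptor (Lifr), and each complex activates the JAK kinases and the transcription factor STAT3. IL-10 also activates STAT3 in MΦs and restrains their production of inflammatory cytokines such as IL-6, whereas SOCS3 binds gp130 and limits its signal. In the inflamed intestine, myeloid cells are a known source of IL-6 and oncostatin M, and stromal and epithelial cells are among the cells that respond to them.

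Il6 (ENSMUSG00000025746) lies on the plus strand of chr5:30013114-30019981 of GRCm38. Osm (ENSMUSG00000058755, chr11:4236420-4241026) and Lif (ENSMUSG00000034394, chr11:4257557-4272514) are neighbours on the plus strand, with 16.5 kb between the end of Osm and the start of Lif. Il6st (ENSMUSG00000021756) lies on the plus strand of chr13:112464070-112510086. Il6ra (ENSMUSG00000027947) lies on the minus strand of chr3:89864059-89913196 and overlaps the annotated gene Gm42809. The strand setting of the read counting is not given in the sources used here, so reads of these 2 genes may not be separated.

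The 250 bases before the transcription start of Il6 and Lif are printed because these were the members with a genotype difference over 3-fold. Promoters of 4 of the 5 members were matched in RefSeq (GRCm38.p6), all but that of Osm. Capitals mark matches to 1 of 7 short motifs, searched on both strands with no overlap among the matches shown, and N stands for any base.
Il6, chr5:30012864-30013113, plus strand: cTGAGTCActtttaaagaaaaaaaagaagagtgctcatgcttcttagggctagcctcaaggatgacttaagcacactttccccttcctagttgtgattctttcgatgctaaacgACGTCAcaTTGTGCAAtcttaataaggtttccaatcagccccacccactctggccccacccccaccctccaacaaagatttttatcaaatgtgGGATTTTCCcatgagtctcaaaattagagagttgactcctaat
Lif, chr11:4257318-4257567, plus strand: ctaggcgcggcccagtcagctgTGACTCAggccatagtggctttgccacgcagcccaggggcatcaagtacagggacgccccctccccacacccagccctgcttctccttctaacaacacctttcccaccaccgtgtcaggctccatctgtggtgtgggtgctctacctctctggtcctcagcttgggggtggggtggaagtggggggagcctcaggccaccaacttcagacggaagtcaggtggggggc
The Il6 sequence held an AP-1 match (TGAGTCA, 249 to 243 bases before the start), a core of the cAMP response element (ACGTCA, 136 to 131 bases before it), a C/EBP match (TTGTGCAA, 128 to 121 bases) and a kappaB match (GGATTTTCC, 43 to 35 bases). Lif held a single match, to AP-1 (TGACTCA, 228 to 222 bases before the start). Il6st held a GC box (CCGCCC on the plus strand, 93 to 88 bases before the start), and Il6ra held none of the 7. Of 32851 mouse promoters of this length, 15.7% held the kappaB motif (GGNNNTTCC), 6.75% AP-1 (TGANTCA), 9.56% C/EBP (TTNNGCAA), 6.47% the core ACGTCA and 32.7% the GC box (GGGCGG). The motifs of STAT factors (TTCNNNGAA, held by 7.02%) and the TATA box (TATAAA, 12.4%) had no match in these 4 windows. A match describes the letters and does not show that a factor binds there.

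Il6 spanned the widest range of the 5 genes. The Il10rb+/- libraries held 114, 674 and 1526 normalized counts at 1, 3 and 12 weeks, and the Il10rb-/- libraries held 277, 638 and 9045. The 12-week Il10rb-/- library stood above the other 5, and the genotypes overlapped because the 12-week Il10rb+/- library exceeded the 1- and 3-week Il10rb-/- libraries. The highest library had 79.3 times the level of the lowest. Ranked by normalized counts (with no correction for length) among the 11067 genes of its library, Il6 lay at the 19.9th percentile in 1-week Il10rb+/- MΦs and at the 96.6th in 12-week Il10rb-/- MΦs.

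Between genotypes, Il6 was 5.93-fold higher in Il10rb-/- MΦs at 12 weeks (log2 ratio 2.57, 95% interval of counting error 2.51 to 2.62). At 1 week it was 2.43-fold higher (log2 ratio 1.28, 0.94 to 1.63), on 115 reads in the Il10rb+/- and 185 in the Il10rb-/- library. At 3 weeks the log2 ratio was -0.08 (-0.28 to 0.13), so a genotype difference was not detectable at this depth. All intervals here are exact Clopper-Pearson intervals and cover counting error only, not the spread between mice.

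With age, Il6 was higher at each later time in both genotypes, but at different steps. In Il10rb+/- MΦs it was 5.91-fold higher at 3 weeks than at 1 week and 2.26-fold higher at 12 than at 3 weeks. In Il10rb-/- MΦs these steps were 2.30-fold and 14.2-fold. From 1 to 12 weeks, Il6 was 13.4-fold higher in Il10rb+/- and 32.6-fold higher in Il10rb-/- MΦs. Whether the steps differ between genotypes could not be tested with 1 library each.

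Osm had the highest level per kb of exon of the 5 genes in every library. It held 5761, 8498 and 7704 normalized counts in Il10rb+/- MΦs at 1, 3 and 12 weeks, and 10675, 9042 and 19161 in Il10rb-/- MΦs. The lowest Il10rb-/- library was above the highest Il10rb+/- library, so the genotypes did not overlap, although the 3-week libraries were close to each other. Osm was the only member with this separation, 1 of 5, beside 2.86% of all 11067 genes with every Il10rb-/- library above every Il10rb+/- library and 2.78% with every one below.

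The Osm difference was 1.85-fold at 1 week (log2 ratio 0.89, 0.84 to 0.94) and 2.49-fold at 12 weeks (1.31, 1.29 to 1.34). At 3 weeks it was 1.06-fold, with a log2 ratio of 0.09 (0.03 to 0.15). The counting error of Osm was small because its reads ran from 3492 to 30091 per library. With age, Osm in Il10rb+/- MΦs was 1.48-fold higher at 3 weeks than at 1 week, and the log2 ratio of 12 over 3 weeks was -0.14. In Il10rb-/- MΦs the log2 ratio of 3 over 1 week was -0.24, and Osm was 2.12-fold higher at 12 than at 3 weeks.

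Lif had the lowest median level per kb of exon of the 5 genes over the 6 libraries. It held 162, 217 and 488 normalized counts in Il10rb+/- MΦs and 147, 502 and 2408 in Il10rb-/- MΦs at 1, 3 and 12 weeks. As with Il6, the 12-week Il10rb-/- library stood apart at the top, but Lif was already higher in the 3-week Il10rb-/- library, which held about the level of the 12-week Il10rb+/- library.

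The genotype difference of Lif was 4.93-fold at 12 weeks (log2 ratio 2.30, 2.20 to 2.40) and 2.32-fold at 3 weeks (1.21, 0.89 to 1.55). At 1 week the log2 ratio was -0.14 (-0.52 to 0.23), on 163 and 98 reads, and no difference was detectable. In Il10rb-/- MΦs, Lif was 3.42-fold higher at 3 weeks than at 1 week and 4.80-fold higher at 12 than at 3 weeks. In Il10rb+/- MΦs the same steps were 1.34-fold and 2.25-fold.

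**Figure D1:**
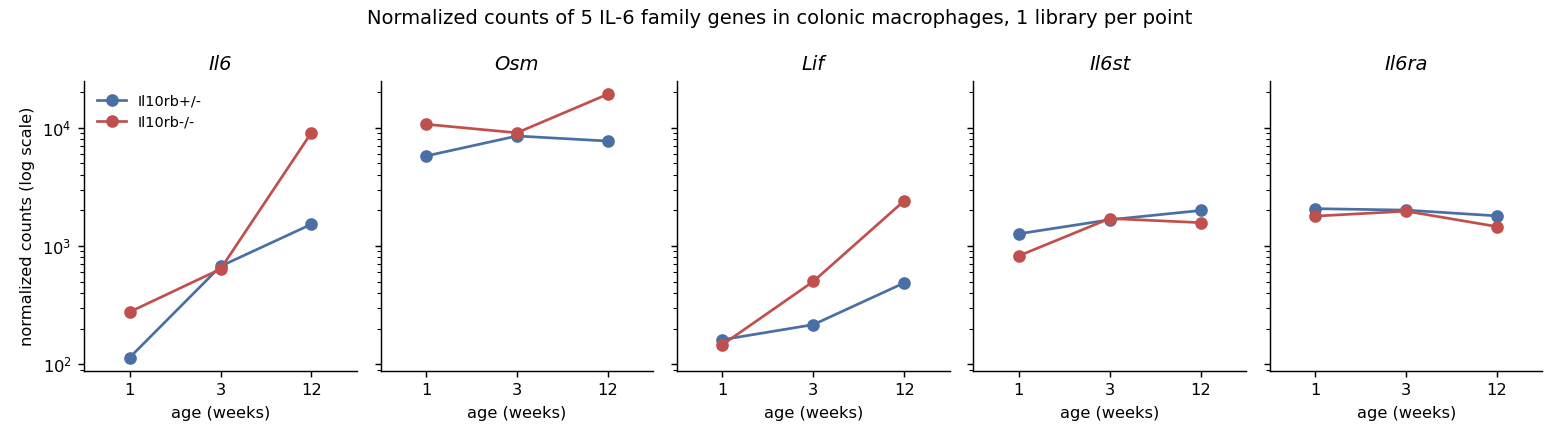
Normalized counts (log scale) of the 5 genes against age in weeks, with 1 point per library and a line for each genotype. Il6 and Lif differ most between genotypes at 12 weeks, where Il10rb-/- MΦs held 9045 and 2408 normalized counts. In contrast, Il6st and Il6ra stay between 827 and 2067 in all 6 libraries.

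The receptor genes varied less over the 6 libraries than Il6 and Lif, with a highest library 2.41 times the lowest for Il6st, beside 3.33 times for Osm. Il6st held 1268, 1667 and 1996 normalized counts in Il10rb+/- MΦs and 827, 1707 and 1575 in Il10rb-/- MΦs at 1, 3 and 12 weeks. The 1-week Il10rb-/- library was the lowest, and the genotypes overlapped. Il6st was lower in Il10rb-/- MΦs at 1 week (log2 ratio -0.62, -0.76 to -0.47) and at 12 weeks (-0.34, -0.41 to -0.27), whereas the log2 ratio at 3 weeks was 0.03 (-0.09 to 0.16).

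Il6ra was the most even of the 5 genes, with a highest library 1.42 times the lowest. It held 2067, 2010 and 1796 normalized counts in Il10rb+/- MΦs and 1788, 1969 and 1458 in Il10rb-/- MΦs. Both genotypes were lowest at 12 weeks, and the genotypes overlapped. The log2 ratios were -0.21 (-0.31 to -0.11), -0.03 (-0.15 to 0.09) and -0.30 (-0.38 to -0.23) at 1, 3 and 12 weeks. In the 12-week pair, the 3 cytokine genes were thus higher and the 2 receptor genes lower in Il10rb-/- than in Il10rb+/- MΦs, in all cases beyond counting error.

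**Figure D2:**
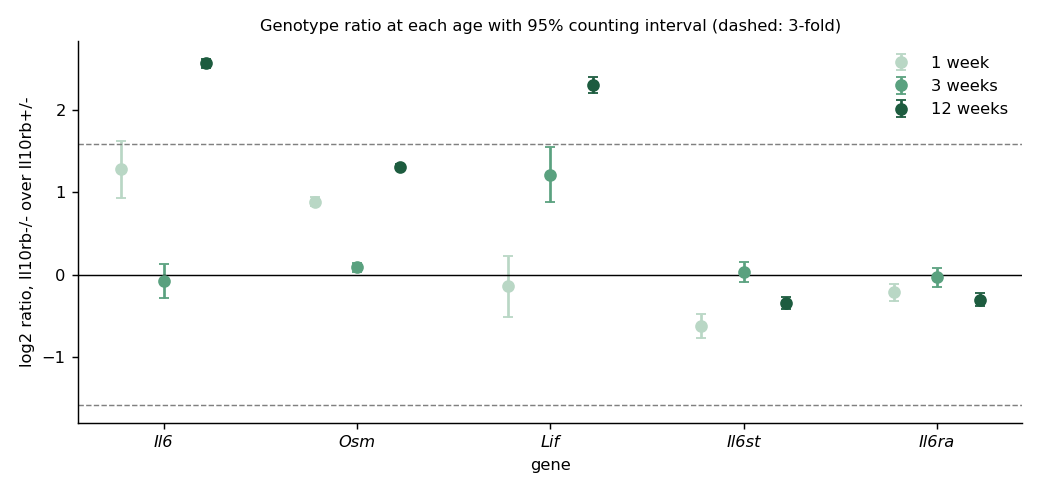
Log2 ratio of Il10rb-/- over Il10rb+/- normalized counts for each gene at each age, with 95% intervals of counting error and dashed lines at 3-fold. At 12 weeks Il6 (2.57) and Lif (2.30) lie above the upper line, Osm (1.31) below it, and Il6st (-0.34) and Il6ra (-0.30) below 0.

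A difference over 3-fold between genotypes was found for 0 of the 5 genes at 1 week, 0 at 3 weeks and 2 (Il6 and Lif, both higher) at 12 weeks. Of all 11067 genes, 2.75% passed 3-fold upwards and 0.75% downwards at 1 week. These shares were 1.34% and 0.642% for the 3-week pair, and 4.03% and 9.99% for the 12-week pair. The median log2 ratio of the 5 genes was -0.14, 0.03 and 1.31 at the 3 ages, beside -0.04, 0.02 and 0.04 for all genes. When libraries were scaled by total reads instead of size factors, the median of all genes at 12 weeks moved to -0.19, and the members moved with it, to 2.35 for Il6, 1.09 for Osm, 2.08 for Lif, -0.56 for Il6st and -0.52 for Il6ra.

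Across ages within a genotype, 1 member (Il6) was over 3-fold higher at 3 than at 1 week in Il10rb+/- MΦs, where 5.2% of all genes were. None was at 12 over 3 weeks in Il10rb+/- MΦs, beside 5.41% of all genes. In Il10rb-/- MΦs, 1 member (Lif) was over 3-fold higher at 3 than at 1 week, beside 3.88%, and 2 (Il6 and Lif) at 12 than at 3 weeks, beside 5.75%. The largest step of Il6 therefore lay after 3 weeks in Il10rb-/- MΦs and before 3 weeks in Il10rb+/- MΦs.

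**Figure D3:**
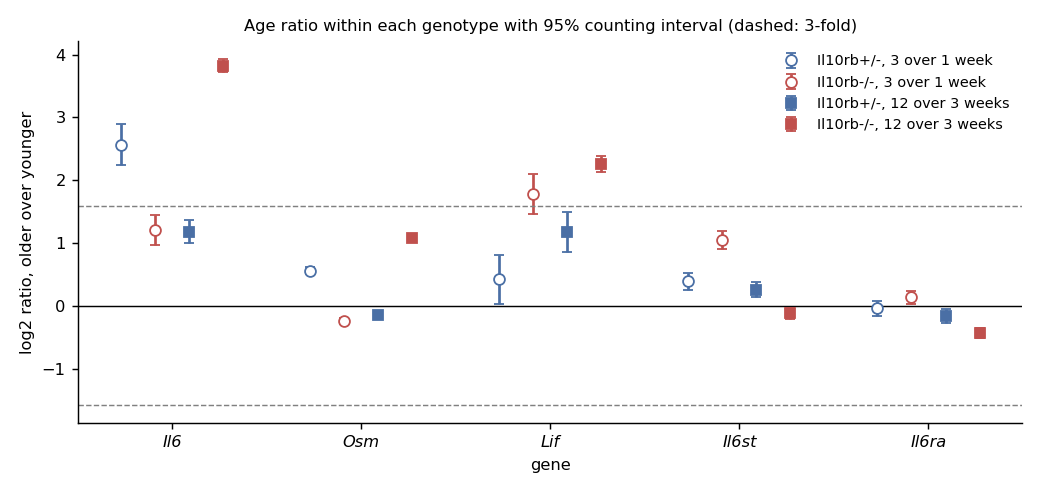
Log2 ratio of the older over the younger library within each genotype, with 95% intervals of counting error and dashed lines at 3-fold. Open circles are 3 over 1 week and filled squares 12 over 3 weeks. Il6 in Il10rb-/- MΦs reaches 3.82 from 3 to 12 weeks, and Osm moves in opposite directions in the 2 genotypes at both steps.

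Ordered by level, some libraries could not be separated beyond counting error. For Il6 these were the 3-week libraries of the 2 genotypes. For Lif they were 3-week Il10rb-/- with 12-week Il10rb+/- MΦs, and the 1-week libraries of the 2 genotypes. For Il6st they were the 3-week libraries with each other and 3-week Il10rb+/- with 12-week Il10rb-/- MΦs, and for Il6ra they were 1-week with 3-week Il10rb+/-, the 3-week libraries with each other, and 12-week Il10rb+/- with 1-week Il10rb-/- MΦs. Every pair of neighbouring libraries in the order of Osm was apart beyond counting error, although by only 0.09 (log2) between the 3-week libraries.

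Per kb of exon, the balance of the cytokine transcripts changed with age. The level of Osm was 54.0 and 41.2 times that of Il6 in 1-week Il10rb+/- and Il10rb-/- MΦs, 13.5 and 15.1 times in those of 3 weeks, and 5.39 and 2.26 times in those of 12 weeks. Osm thus exceeded Il6 in each library, with the smallest margin in 12-week Il10rb-/- MΦs. The level of Osm per kb was 15.2 to 139 times that of Lif, again with the smallest margin in 12-week Il10rb-/- MΦs. Per kb, Il6ra was 2.09 and 2.78 times Il6st at 1 week in Il10rb+/- and Il10rb-/- MΦs, and 1.16 and 1.19 times at 12 weeks.

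The 12-week libraries also differed in markers of MΦs and of other cells, and the part of these in the cytokine differences was not tested. Sums here cover all genes of a list that were in the table, whereas counts over 3-fold cover those past the filter. Of 14 MΦ markers, 7 were over 3-fold lower in Il10rb-/- MΦs (Adgre1, Cx3cr1, C1qa, C1qb, C1qc, Cd163 and Mrc1) and none over 3-fold higher, beside 9.99% and 4.03% of all genes. By direction alone, 11 were lower and 3 higher. Cd14 was 2.05-fold and Itgam 1.40-fold higher, whereas Fcgr1 (log2 ratio 0.04) and Csf1r (-0.01) were within counting error. The summed level of the 14, mostly from Cd14 and Lyz2, was 502222 (Il10rb+/-) and 449133 (Il10rb-/-) normalized counts. Of 4 monocyte markers 3 were over 3-fold higher (summed 13395 and 31509), including Ly6c2, whose protein belongs to the antigen by which Ly6C-positive cells were gated out. Of 6 neutrophil markers past the filter 5 were over 3-fold higher (S100a8, S100a9, Cxcr2, Csf3r and Ngp), with a summed level of 2591 and 12346. However, S100a8, S100a9, Cxcr2 and Ngp passed the filter only through the 12-week Il10rb-/- library, so the filter partly fixed this count. The remaining marker, Mmp9, was lower, at 1090 and 416 normalized counts. Ly6g, Ngp and Camp were at 0 reads in Il10rb+/- but not in Il10rb-/- MΦs. All 6 B and plasma cell markers (summed 17550 and 1906) and 6 of 7 fibroblast markers (4108 and 558) were over 3-fold lower in Il10rb-/- MΦs. Of 8 epithelial markers 4 were over 3-fold higher and 1 lower (928 and 2248). All 6 endothelial markers were lower, 4 of them over 3-fold (2096 and 912). Of 4 dendritic cell markers past the filter, Ccr7 was over 3-fold higher, with 10331 and 38707 normalized counts (summed list 10831 and 39828). Kit, the only mast cell and basophil marker of 7 past the filter, was also over 3-fold higher, with 490.3 and 2554 normalized counts (summed 533 and 2566). The only other gene of this list in the table, Gata2, was below the filter and went the other way, at 42.6 and 11.5. Of 4 T cell markers past the filter, Cd3g was over 3-fold higher (26.0 and 154) and Cd4 lower (1712 and 210.1). Cd4 carried most of the T cell sum (2175 and 722), and Cd28 was also lower (377 and 197). In contrast, Cd3d, Cd3e and Cd8a (0 and 41 reads) were higher as Cd3g was. In 1-week Il10rb+/- MΦs, Cd4 held 3227 normalized counts where Cd3e, Cd3g and Cd8a had 0 reads, so the sum does not follow the CD3 genes. Both eosinophil markers past the filter were over 3-fold lower (summed 200 and 52.2). As for the neutrophil markers, the filter partly fixed some of these counts. The endothelial markers Cdh5, Tek and Sox18, the fibroblast marker Pdgfra and the eosinophil marker Ccr3 passed it only through the 12-week Il10rb+/- library. Cd3g passed it only through the 12-week Il10rb-/- library. The 12 genes of dissociation and heat shock were all lower in Il10rb-/- MΦs, none over 3-fold, with a median log2 ratio of -0.56.

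Markers of other cells also differed at the earlier ages. At 1 week, where Il6 and Osm were higher in Il10rb-/- MΦs, 6 of 7 fibroblast markers (summed 229 and 1260 normalized counts) and 4 of 8 epithelial markers (183 and 956) were over 3-fold higher in the Il10rb-/- pool, and 1 of 14 MΦ markers, Cd163, was over 3-fold lower. The epithelial marker Krt19 had 0 and 148 reads there, and of the neutrophil markers Cxcr2 was over 3-fold higher (6 and 16 reads) and Mmp9 lower. Of the 4 monocyte markers at 1 week, 2 were higher and 2 lower, none over 3-fold. Their summed level was 4310 and 11088, mostly from Ccr2, which was 2.70-fold higher (3960 and 10700). At 3 weeks, where Lif was higher, 2 of 4 monocyte markers, Ly6c2 and Plac8, were over 3-fold higher, and none of the 14 MΦ or 7 fibroblast markers was past 3-fold. Kit was 4.73-fold, the plasma cell gene Jchain 4.49-fold, the heat shock gene Hsph1 3.52-fold and the dendritic cell gene Ccr7 3.07-fold higher in 3-week Il10rb-/- MΦs, whereas the epithelial gene Car1 and the B cell gene Ms4a1 were over 3-fold lower. Jchain was the only 1 of the 6 B and plasma cell markers that was higher at 3 weeks. The other 5 were lower, among them the plasma cell gene Mzb1 (36.5 and 16.7), and the summed list was at 1076 and 742. Of the 4 dendritic cell markers past the filter, Xcr1 was higher as Ccr7 was. Zbtb46 (log2 ratio -0.59) and Flt3 (-0.53, within counting error) were lower. Ccr7 carried most of the dendritic cell sum (1236 and 3343). Among the 12 genes of dissociation and heat shock, 5 were higher, including Hspa1a and Hspa1b, and 7 lower (summed 969310 and 868960). S100a9, Tek and Sox18 at 3 weeks, and Cd3g, Jchain and Sox18 at 1 week, were past 3-fold with 3 reads or fewer in a library. The same held at 1 week for the fibroblast marker Pdgfra (1 and 2 reads) and the epithelial markers Krt18 (1 and 10 reads) and Krt19. The 1-week fibroblast and epithelial counts above include these genes. The part of these markers in the differences was not tested.

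Of 13 other gp130 cytokines and co-receptors, 10 were in the table and 7 passed the filter. None was over 3-fold at 1 or 3 weeks, and at 12 weeks Il27 was higher and Osmr lower. However, Osmr passed the filter only through the 12-week Il10rb+/- library, so the filter partly fixed its place in these counts. Il27, which encodes a subunit of the cytokine IL-27, lay at 107 (Il10rb+/-) and 400 (Il10rb-/-) normalized counts at 12 weeks, a 3.74-fold difference. Osmr, the receptor partner of gp130 for oncostatin M, had 0 or 1 read in each library at 1 and 3 weeks and 72.3 and 14.6 normalized counts in Il10rb+/- and Il10rb-/- MΦs at 12 weeks. Fibroblasts are known to express Osmr, and the 12-week fibroblast markers were lower in the same direction. At 3 weeks, however, the summed fibroblast markers were at 2901 and 3090 normalized counts, with 1 Osmr read in each library. The part of these in the Osmr level was not tested.

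Lifr, the receptor partner of gp130 for LIF, had 1268, 2833 and 2174 normalized counts in Il10rb+/- MΦs and 735, 1765 and 862 in Il10rb-/- MΦs at 1, 3 and 12 weeks. It was lower in Il10rb-/- MΦs at each age, with log2 ratios of -0.79 (-0.94 to -0.63), -0.68 (-0.79 to -0.58) and -1.33 (-1.42 to -1.25). The genotypes nevertheless overlapped across ages, because the 3-week Il10rb-/- library was above the 1-week Il10rb+/- library. The median log2 ratio of the 7 genes was 0, -0.06 and -0.48 at the 3 ages.

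The 14 genes of gp130 signal transduction and its brakes described here were past the filter, and none of these 14 was over 3-fold at any of the 3 ages. Stat3, the main transcription factor downstream of gp130, had log2 ratios of 0.00 (-0.08 to 0.08), 0.14 (0.07 to 0.22) and 0.30 (0.27 to 0.33). Jak1, the kinase bound to gp130, had -0.28, -0.09 and 0.12, and Socs3, the gp130 inhibitor, had 0.10, -0.28 and 0.33. Socs3 held 16337, 42954 and 46948 normalized counts in Il10rb+/- MΦs and 17516, 35346 and 59079 in Il10rb-/- MΦs. The 1-week libraries were the lowest for Socs3 in both genotypes. At 12 weeks 13 of the 14 genes were higher in Il10rb-/- MΦs, most by less than 2-fold, beside 52.0% of all genes higher at this age, with a median log2 ratio of 0.49 after -0.11 and 0.14 at 1 and 3 weeks. The count of 13 rests on size factors and includes small ratios such as that of Jak1. It was not repeated with scaling by total reads, where the median of all genes was -0.19.

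Of 14 genes known as targets of STAT3, 13 were in the table and past the filter. Il1rn, which encodes the interleukin-1 receptor antagonist, was 3.17-fold higher in Il10rb-/- MΦs at 1 week, 2.11-fold at 3 weeks and 3.01-fold at 12 weeks. At 12 weeks the acute phase gene Saa3 was 28.5-fold higher, at 405 (Il10rb+/-) and 11531 (Il10rb-/-) normalized counts. Lcn2, which encodes the iron-sequestering protein lipocalin-2 and is also abundant in neutrophils, was 51.6-fold higher, with 9.46 and 488 normalized counts. Lcn2 passed the filter only through the 12-week Il10rb-/- library, so the filter partly fixed this call. At 3 weeks Saa3 was in the opposite direction, with 752 and 320 normalized counts. Timp1 at 1 week (2 and 5 reads) and Lcn2 at 3 weeks (0 and 10 reads) were also past 3-fold, but 1 of their libraries had 3 reads or fewer. The median of the 13 genes was 0.10, 0.07 and 0.41 at the 3 ages.

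Of 14 regulators of Il6 and Osm transcripts, which include NF-kappaB and AP-1 subunits and RNA-binding proteins, 13 were in the table and past the filter. None was over 3-fold at 1 or 3 weeks. At 12 weeks Hif1a, the transcription factor of the hypoxia response, was 5.02-fold higher in Il10rb-/- MΦs (5190 and 26064 normalized counts), and Fosl1, an AP-1 subunit, was 3.77-fold higher (211 and 795). The median of the 13 genes was 0.16, 0.11 and 0.07 at the 3 ages, beside -0.04, 0.02 and 0.04 for all genes. At 1 week 9 were higher and 4 lower, beside 46.0% of all genes higher. At 3 weeks 7 were higher and 6 lower, beside 52.1%, and at 12 weeks 8 were higher and 5 lower, beside the same 52.0% of all genes higher. These counts too were not repeated with scaling by total reads.

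**Figure D4:**
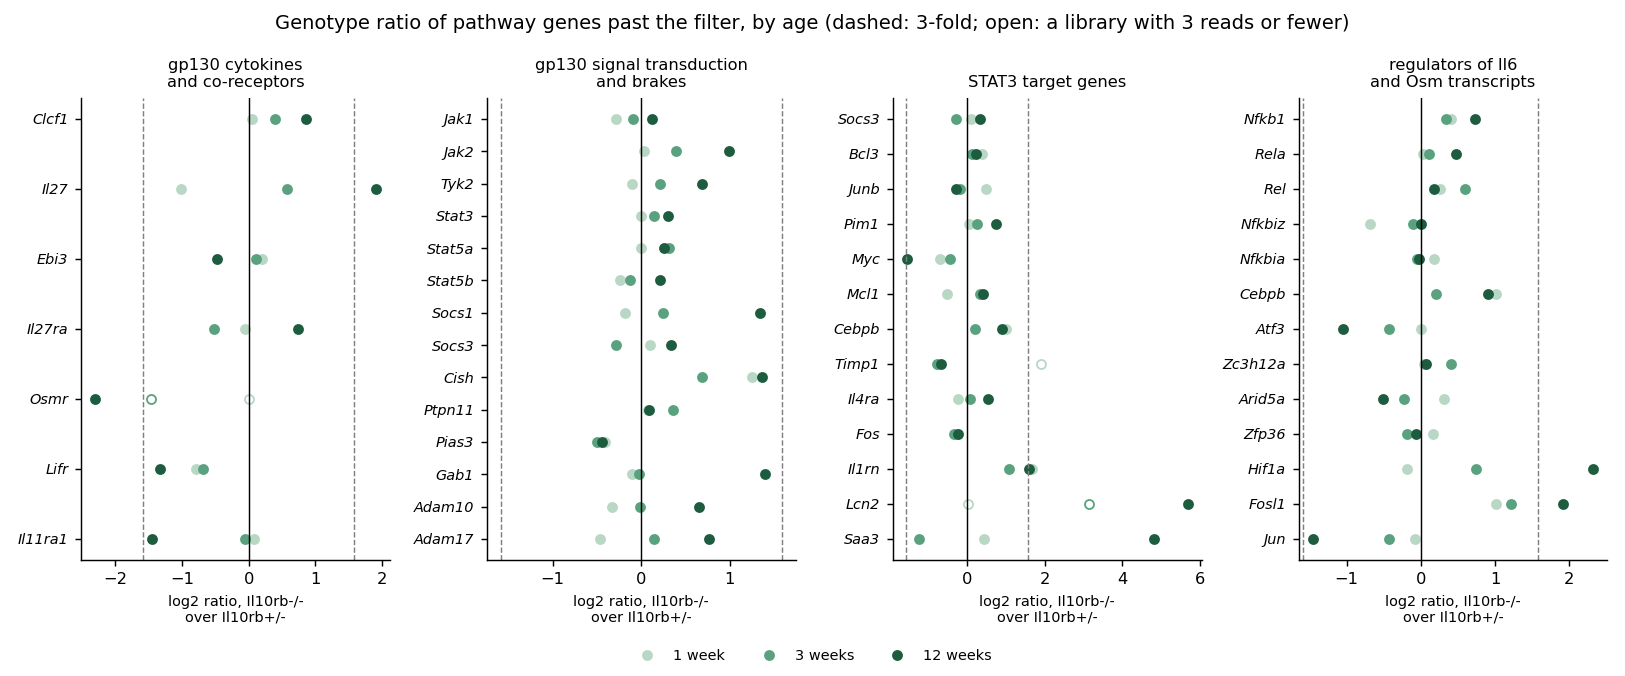
Log2 ratio of Il10rb-/- over Il10rb+/- normalized counts at each age (shade) for the genes described from 4 lists that passed the filter, with dashed lines at 3-fold and open circles where a library had 3 reads or fewer. Hif1a reaches 2.33 and Il27 1.90 at 12 weeks, whereas Jak1, Stat3 and Socs3 stay between -0.28 and 0.33.

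The profiles of Osm and Lif differed although the genes are adjacent. Both were higher in Il10rb-/- MΦs at 12 weeks, whereas Osm was the higher of the pair by its genotype ratio at 1 week (0.89 and -0.14) and Lif at 3 weeks (0.09 and 1.21). The 5 other genes within 100 kb of them that passed the filter had log2 genotype ratios from -0.07 to 0.36 at 12 weeks. Their ratios ran from -0.33 (Rnf215) to 0.57 (Ccdc157) at 1 week and from -0.05 (Rnf215) to 0.92 (Gatsl3) at 3 weeks.

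The genes with the most similar profile to each member were those with the smallest root mean square difference in centred log2 values over the 6 libraries. For Il6 they were Fzd1 (0.39), Pglyrp1 (0.41) and Clec4e (0.46), of which Fzd1 and Pglyrp1 had 1 to 14.6 normalized counts at 1 and 3 weeks. Lif was matched more closely, by Oas3 (0.23), Tnfaip2 (0.24) and Sod2 (0.25), and Osm by Ap3s1 (0.13), Ralgapa2 (0.14) and Slc22a15 (0.14). The profile of Il6st was nearest to Hspa5 (0.057), Tob1 (0.14) and Nfkbid (0.14), and that of Il6ra to Glt8d1, Mylip and Map3k11 (0.038 to 0.039). Between members, Il6 differed from Lif by 0.85 and from Osm by 1.58, and Osm from Lif by 1.03, so none of the 3 cytokine genes was among the 3 closest genes of another. These are descriptions over 6 libraries that share genotypes and ages.

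The only comparison with more than 1 library per genotype was made in limma, with terms for genotype and age over all 6 libraries, on log2 of the value plus 1. After Benjamini-Hochberg adjustment, 0% of the 11067 genes were called at an adjusted p under 0.05, and none of the 5 members was. At an unadjusted p under 0.05 there were 853 genes. The log2 effect of Il6 was 1.25 ± 0.48 (SE, 3 libraries per genotype, adjusted p = 0.627 in limma), that of Osm 0.76 ± 0.27 (adjusted p = 0.627) and that of Lif 1.12 ± 0.45 (adjusted p = 0.627). Il6st was at -0.31 ± 0.18 (limma adjusted p = 0.638) and Il6ra at -0.18 ± 0.15 (adjusted p = 0.705). The error of this test is the variation of the genotype difference between ages, which for Il6 ran from -0.08 to 2.57, so it bears on a shared difference and not on any 1 age. Of the genes described from the 4 pathway lists, 0 passed.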

How the data were processed

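RNA of sorted colonic P3/P4 MΦs was sequenced in 6 libraries, which were grouped by labelled genotype and age. The labels and the paper differ in how many mice were pooled at 1 week. The submitters' processing notes name Trim Galore, TopHat, HTSeq, DESeq and the build mm10. The authors mapped single-end reads with TopHat, counted reads per gene, divided counts by DESeq size factors and showed a count of 0 as 1. The deposited values are thus a normalized signal, not counts. Tool versions and the strand setting are not given in the sources used here.

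Apart from the 1s, 100% of the values in each library were whole multiples of a step of 0.473 to 2.43 normalized counts per read, so reads were read back for intervals and depth, with a value of 1 taken as 0 reads. Log2 ratios were taken on the normalized counts. Intervals are exact Clopper-Pearson 95% intervals for 1 library against another. The filter was 50 normalized counts in at least 1 library (20.5 to 106 reads), and genes over 3-fold were counted among those that passed. Genotypes were compared across ages with limma 3.58.1 (R 4.3.3) on log2(value + 1), with a trended empirical Bayes prior. The test was also run on simulated data in which each genotype difference was the same at every age. That run does not show how the test behaves where the difference varies with age, as for Il6. Other steps used Python 3.11.15, scipy 1.17.1 and pandas 2.3.3. Coordinates are from GENCODE M21 (GRCm38), which held 14085 of the 14097 genes.

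The members and gene lists were chosen with earlier results of these data known. The text names the 5 members, Il10rb, up to 4 genes over 3-fold per list and age, Jak1, Stat3 and Socs3, and the 3 nearest profiles of each member. Lifr, Osmr at the ages without a call, and the marker genes were described beyond this rule. A gene of the list of gp130 signal transduction and brakes is not reported here and was left out of its counts and median. The alternatives were a pseudocount of 10, no filter, a filter on the compared libraries, scaling by total reads or TMM, no age term, and leaving out libraries.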

Additional observations from a re-analysis of the deposited data

Results flagged for a closer look

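Osm and Il6st moved in opposite directions with age in the 2 genotypes, each step measured in 1 library per genotype and age, so the difference between genotypes was not tested. From 1 to 3 weeks the log2 change of Osm was 0.56 in Il10rb+/- and -0.24 in Il10rb-/- MΦs, a difference of -0.80. From 3 to 12 weeks it was -0.14 in Il10rb+/- and 1.08 in Il10rb-/- MΦs, a difference of 1.22. The opposite directions of Osm were also present with scaling by total reads (0.42 and -0.42 from 1 to 3 weeks, -0.38 and 0.67 from 3 to 12 weeks). From 3 to 12 weeks the log2 change of Il6st was 0.26 in Il10rb+/- and -0.12 in Il10rb-/- MΦs, a difference of -0.38, and with scaling by total reads the changes were 0.02 and -0.53.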

How the results depend on the processing

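The number of members over 3-fold (0, 0 and 2 at 1, 3 and 12 weeks) was the same with a pseudocount of 10, scaling by total reads and TMM scaling. The count over all genes was less stable. At 1 week it was 387, but 1124 with no filter, 133 with a filter on the compared libraries and 125 with a pseudocount of 10. At 3 weeks it was 219, but 895, 105 and 85 under these settings, and at 12 weeks it was 1552, but 2947 with no filter. Scaling by total reads changed the 12-week split from 446 higher and 1106 lower to 351 and 1302. Of 45 member ratios at an age recomputed under an alternative, 40 moved by less than counting error and 5 by more, all 5 at 12 weeks with scaling by total reads. Of 60 ratios between ages, 15 moved and 1 reversed: Il6ra in Il10rb-/- MΦs from 1 to 3 weeks, 0.14 and -0.044 with scaling by total reads. limma called 0 genes, 1 with a pseudocount of 10, 1 with no age term and between 0 and 74 when libraries were left out: 20, 3 and 61 without both libraries of 1, 3 or 12 weeks, and 18 without either 1-week library, 0 without Il10rb+/- and 1 without Il10rb-/- at 3 weeks, and 74 without Il10rb+/- and 63 without Il10rb-/- at 12 weeks. No member was called under any of these 15 settings, with the lowest adjusted p in limma at 0.191 for Lif without the 1-week Il10rb-/- library. Without both 12-week libraries the effects of Il6, Osm and Lif were 0.60, 0.49 and 0.54, and without both 3-week libraries that of Il6 was 1.92. The cause of these changes was not tested. The planned count models on the reads were not run, because the deposited values are normalized with 0 shown as 1. Depth limits Il6 and Lif in the younger libraries, with 98 to 185 reads per library at 1 week and 89 reads of Lif in 3-week Il10rb+/- MΦs.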
